A study of Homo sapiens with 2 samples.

Results

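The promoters of CXXC1, RPL34, NELFA, THAP4 and ATG4B, KNSTRN, TCP11L1 and SH3BP5L carried some of the strongest ASH1 peaks seen with both antibody batches in K562 cells. They make up 7 promoters of 8 genes, since THAP4 and ATG4B share 1. The genes were chosen by the peak scores themselves, as strong peaks shared by both lists, and a peak belonged to a gene when it came within 2 kb of the gene's start site on hg19. Each promoter had 1 such peak in each list, which is 7 of 910 peaks in replicate 1, 7 of 4646 in replicate 2, and 7 of the 471 pairs of overlapping peaks. The scores, ranks and ratios of these promoters are therefore a description and were given no test.

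Chromatin immunoprecipitation with sequencing (ChIP-seq) was done in K562, an established human line derived from chronic myelogenous leukaemia, grown without any treatment. The antibodies were rabbit polyclonals raised to the last 18 residues of ASH1, with batch 1 used for replicate 1 and batch 3 for replicate 2. The 2 samples form 1 group with no second condition, and replicate and antibody batch cannot be told apart. The study's title concerns chromatin that carries both H3K36me3 and H3K9me3 marks, and those marks were not analysed here. Both batches see the same short peptide, so ASH1 and any other protein that both might recognise cannot be told apart in these lists.

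ASH1 (gene ASH1L) is a trithorax-group protein whose SET domain methylates histone H3, and trithorax proteins are known for keeping genes active. Promoters of widely expressed genes usually lie in CpG islands, stretches rich in the CG dinucleotide that mostly stay unmethylated. Among the members, CXXC1 encodes a zinc-finger protein that binds unmethylated CpG and belongs to the SET1 complexes that methylate histone H3 at active promoters. NELFA is a subunit of the negative elongation factor, which holds RNA polymerase II shortly after its start, and THAP4 has a THAP-type zinc finger. RPL34 is a protein of the large ribosomal subunit. ATG4B is the protease that trims LC3-family proteins during autophagy, and KNSTRN encodes a kinetochore and spindle protein.

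A 6-base word, GTACGG, which reads as CCGTAC on the other strand, was found in the promoters of 6 of the 8 genes. The sequences are the RefSeq promoters of GRCh38.p14, 250 bases before to 50 after a start site, matched by symbol for 8 of 8 genes. They are shown because most of the member promoters hold this word. Every site is written 5′ to 3′ on the strand that reads GTACGG, with the word in capitals:
CXXC1: caagcagccgccGTACGGactctactgaca
RPL34, upstream site: aaccaccacgttGTACGGcaaccaacgtgc
RPL34, downstream site: agtatccgtgttGTACGGaagccgacgcac
THAP4, upstream site: agccatcttgcgGTACGGacgtgctcggcg
THAP4, middle site: gcccatgtcgcgGTACGGacttgccccgcc
THAP4, downstream site: ctccatcttgccGTACGGcgcggacgccgc
ATG4B: cgccattttggcGTACGGccgggccgacgc
TCP11L1, upstream site: cgccatgttttcGTACGGaaacg
TCP11L1, downstream site: cgccatgtcttcGTACGGaaaggcgggagg
SH3BP5L: gggcaccattttGTACGGaaactgaaggca

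These are 10 sites, and 9 of them lay before the start site, as did 250 of the 300 bases searched. The word was picked after the members' sequences had been read, so its count in the members is a description. Of the 27305 genes in the promoter table, 3.51% held GTACGG on either strand, and among protein-coding genes the share was 4.48%. The word contains a CG, so CpG-rich promoters were also counted apart. Among protein-coding genes whose promoter had a CpG content of at least 0.6 of that expected from its C and G, 5.31% held it. More than 1 site was found in 36 genes of the table, and 3 of those are members (RPL34, THAP4 and TCP11L1). NELFA and KNSTRN had none in the 300 bases searched, which says nothing of the sequence outside them.

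In 7 of the 10 sites the word was followed by an A. The CXXC1 site and the downstream THAP4 site read GTACGG on both strands. For these 2 the strand shown was the one with an A after the word or the bases CCAT before it. That choice favours both features. The longer word GTACGGA stood in 5 of the 8 member promoters (CXXC1, RPL34, THAP4, TCP11L1 and SH3BP5L) and in 0.798% of all genes. Of the 1949 words of 7 bases in the member promoters, 3 occurred in at least 5 members. The other 2 were GGACGCC, held by 7.01% of all genes, and CCTGCGC, held by 14.5%. GTACGGA was the rarest of them in the table. It was read from the members' own sites and the limit of 5 equals its own count, so this place is a description. With a C in front instead, CGTACGG was found in 4 members (CXXC1, THAP4, ATG4B and TCP11L1) and in 0.619% of genes.

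A second feature sat beside the word. In 6 of the 10 sites the bases CCAT ended exactly 6 bases before GTACGG: all 3 of THAP4, both of TCP11L1 and the 1 of ATG4B. CCAT is also the core of the motif read by the zinc-finger protein YY1. This pair of words at this spacing occurred in 10 genes of the table, 0.0366% of all, and 3 of the 10 were members. The other 7 were CENPO, PTRHD1, IPO8, MORC4, SGCD, LOC124901780 and LOC124909453, which are named because they hold the pair, after it had been seen. Whether these genes carry ASH1 peaks was not analysed here, since the table gives positions in another build than the peaks. The spacing too was read from the members, so the count describes them and tests nothing.

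**Figure D1:**
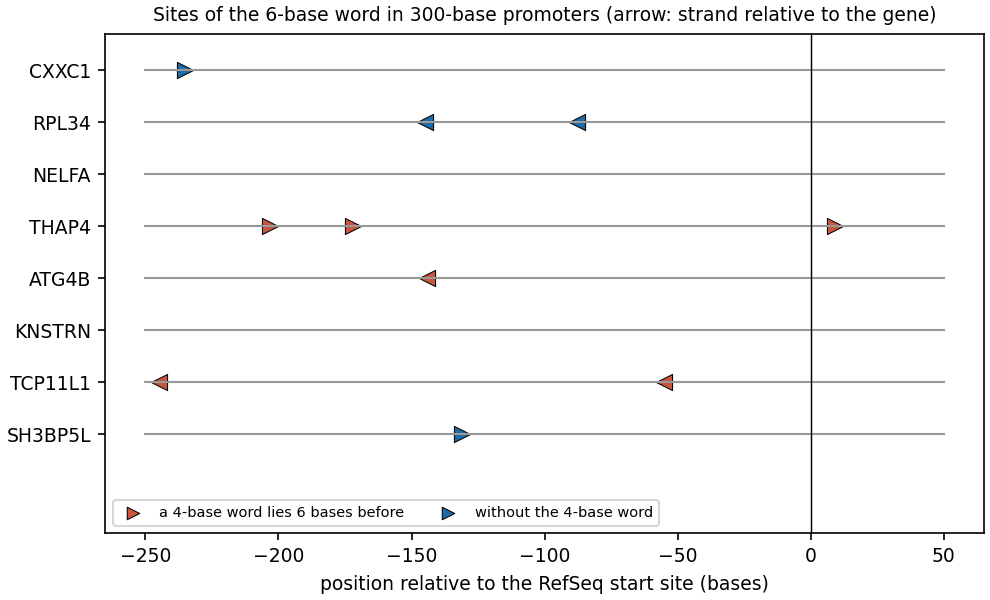
Positions of the 6-base word in the 300-base RefSeq promoters of the 8 member genes, in bases from the start site. Arrows give the strand relative to the gene, and for the 2 sites that read on both strands the strand written in the text. Red marks the 6 sites with the 4-base word 6 bases before. NELFA and KNSTRN have no site and RPL34, THAP4 and TCP11L1 have more than 1.

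The sites had no common distance from the start. The CXXC1 site began at position -235 and the SH3BP5L site at -131. The RPL34 sites began at -145 and -88, and those of TCP11L1 at -245 and -55. In THAP4 they began at -203, -172 and 9, and in ATG4B at -144. The start sites of THAP4 and ATG4B face away from each other, and their promoter windows do not overlap, so both sides of this shared promoter held the word. RPL34 also has a divergent partner within 1 kb in the table, the non-coding gene RPL34-DT, and the other members had none there.

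The promoters of CXXC1 and KNSTRN, the 2 highest peaks of replicate 1, show how unlike the member sequences are otherwise. The 250 bases before each start follow, read along the gene, with matches to GTACGG on either strand in capitals. In CXXC1 the word reads on both strands at once, so 8 bases are in capitals, and KNSTRN has no match. Their GRCh38.p14 positions are chr18:50287693-50287942 on the minus strand and chr15:40382471-40382720 on the plus strand. They must not be set against the hg19 positions of the peaks.
CXXC1: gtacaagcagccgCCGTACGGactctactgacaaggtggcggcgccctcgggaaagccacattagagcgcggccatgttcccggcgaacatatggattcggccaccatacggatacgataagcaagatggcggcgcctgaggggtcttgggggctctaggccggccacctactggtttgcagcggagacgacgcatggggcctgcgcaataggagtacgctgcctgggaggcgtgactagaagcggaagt
KNSTRN: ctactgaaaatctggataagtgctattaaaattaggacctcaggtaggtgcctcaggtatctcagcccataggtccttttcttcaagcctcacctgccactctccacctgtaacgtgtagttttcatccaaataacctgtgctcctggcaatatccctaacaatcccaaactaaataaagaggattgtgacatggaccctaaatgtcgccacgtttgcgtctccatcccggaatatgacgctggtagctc

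Most of the member promoters were CpG-rich, which is common among protein-coding genes. A CpG content of at least 0.6 of expectation was reached by 62.2% of protein-coding entries and by all members but KNSTRN. CpG content over expectation, computed on the 300 bases, was 1.23 in ATG4B, 1.10 in THAP4, 1.07 in NELFA and 0.957 in CXXC1, against a median of 0.737 over protein-coding entries of the table. TCP11L1 had 0.844 and 0.922 at its 2 listed start sites, and RPL34 had 0.881 and 0.791. SH3BP5L, at 0.703, lay just below that median. KNSTRN stood apart with 0.397 and a GC share of 46.7%, against 79.3% in THAP4. The sequence at the listed start site of KNSTRN thus does not have the CpG content usual for a housekeeping-type promoter.

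Of 9 other promoter words searched on both strands, none was held by all members. GGGCGG, the core of GC boxes, was found in 5 of 8 members (RPL34, THAP4, ATG4B, TCP11L1 and SH3BP5L) and in 64.3% of protein-coding genes. CCAAT was found in 3 members (RPL34, ATG4B and TCP11L1) and in 42.1% of those genes. CCGGAAG, the ETS-type word, was found in RPL34 and NELFA and in 16.5% of them. AAGATGGCG, a long form of the YY1 word, was found in CXXC1 and NELFA and in 3.21% of them. The TATA-type word TATAAA was found in 0 of the 8 and in 12.4% of them. None of the 8 held the palindrome CTCGCGAG (1.80% of protein-coding genes) or the NRF1-type word CGCATGCG (3.28%). The cyclic AMP response word TGACGTCA (3.00%) and the word ACTACAA (3.81%) were also found in 0 of the 8. These counts are small and lie on both sides of the shares in the table.

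The word was also counted in genes related to the members by family or complex. Of 65 such genes with an entry in the table, 4 (6.15%) held GTACGG, against 3.51% of the table and 4.48% of its protein-coding genes, and 0 held GTACGGA. They belong to 8 lists: SET1 complexes, NELF, ATG4 proteases, the THAP, SH3BP5 and TCP11 families, spindle partners of KNSTRN, and the large ribosomal subunit. The 4 were KIF2B, a mitotic kinesin, and the ribosomal protein genes RPL27A, RPL28 and RPL38, out of 40 other ribosomal genes. None of the other 9 THAP genes, 3 NELF genes or 2 ATG4 genes with an entry held it. Peaks at these related genes were not analysed here.

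The peak scores follow, beginning with the chromatin and transcription genes. A score is the authors' value for a peak, and its form is that of MACS, the negative log10 of a p-value multiplied by 10. Deeper sequencing and stronger enrichment both raise it, and the depth of either library is unknown. The CXXC1 peak (chromosome 18, 47813603 to 47814768 in replicate 1 and 47813661 to 47814912 in replicate 2) scored 3100.0 and 2844. It was the highest of all peaks in replicate 1, at a value that no score exceeds, and the 7th of 4646 in replicate 2. Among shared peaks it was first in both lists.

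The NELFA peak (chromosome 4, 2010226 to 2011548 and 2010403 to 2011446) scored 971 with antibody batch 1 and 858 with batch 3. The peak between THAP4 and ATG4B (chromosome 2, 242576271 to 242577410 and 242576266 to 242577370) scored 861 and 872. These peaks ranked 3rd and 5th in replicate 1, and 104th and 99th in replicate 2. Their scores in the 2 lists were thus close. The ranks come from lists of 910 and 4646 peaks and cannot be set side by side. As percentile ranks they were 99.8 and 97.8 for NELFA, and 99.6 and 97.9 for THAP4 and ATG4B.

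At RPL34 (chromosome 4, 109541068 to 109542154 and 109541228 to 109542070) the scores were 753 and 963. With THAP4 and ATG4B it was 1 of 2 promoters that scored higher in replicate 2, and here by more. This peak ranked 8th in replicate 1 and 77th in replicate 2. KNSTRN (chromosome 15, 40674500 to 40675604 and 40674476 to 40675583) scored 1047 and 800.0. It stood second to CXXC1 alone in replicate 1 and ranked 126th in replicate 2.

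TCP11L1 (chromosome 11, 33060584 to 33061603 and 33060363 to 33061632) scored 767 and 649. SH3BP5L, which encodes a relative of the RAB11 activator SH3BP5, had its peak at chromosome 1, 249119838 to 249120974 and 249119699 to 249121019, with scores of 713 and 656. They ranked 7th and 9th in replicate 1 and 193rd and 188th in replicate 2. These were the lowest member scores of replicate 2. Without CXXC1, the lowest and highest member scores were 713 and 1047 in replicate 1, where the list median was 61.7. In replicate 2 they were 649 and 963, and the list median was 148.

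**Figure D2:**
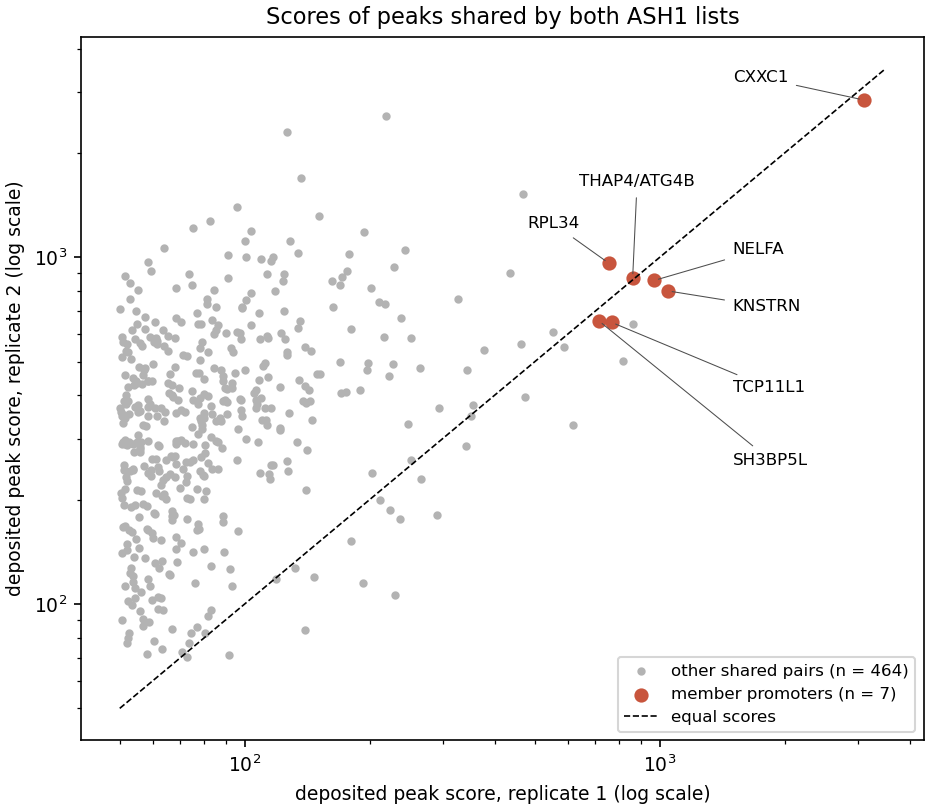
Deposited scores of the 471 pairs of overlapping peaks, replicate 1 on the horizontal and replicate 2 on the vertical axis, both logarithmic, with the 7 member promoters in red. The members lie near the line of equal scores at the right-hand side, with CXXC1 alone at the upper end, while most other pairs lie above the line.

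The members filled 7 of the first 9 places of the replicate 1 list. The 2 places between them were held by peaks on chromosome 9 (95639872 to 95640927, scores 864 and 642) and chromosome 19 (52407758 to 52408838, scores 814 and 501). The 7 members overlapped a replicate 2 peak by the way they were chosen, and the 2 other peaks did so too. Over the whole lists, 51.8% of replicate 1 peaks and 9.99% of replicate 2 peaks overlapped a peak of the other list. In replicate 2 the same members were spread from rank 7 to rank 193. Counted among shared peaks alone, they held places 1, 24, 34, 36, 46, 70 and 73 there. By the mean of the percentile ranks in both lists they held places 1, 3, 4, 5, 6, 11 and 12 of 471. Just below the members in replicate 1 came shared peaks with scores of 619, 587 and 553, against 713 at SH3BP5L, the lowest member.

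Member scores were about equal in the lists, while most other shared peaks scored higher in replicate 2. The ratio of the replicate 2 to the replicate 1 score was 0.764 at KNSTRN, 0.846 at TCP11L1, 0.884 at NELFA, 0.918 at CXXC1 and 0.919 at SH3BP5L. It was 1.01 at THAP4 and ATG4B and 1.28 at RPL34. The highest score was 3100.0 in both lists, the value of a cap if there is one. The CXXC1 ratio uses a replicate 1 score at that value and may be too high if it is a cap. The median over the 7 was 0.918, against 4.04 over the 464 other pairs (quartiles 2.59 and 6.43). Between 1.72% of those pairs, for KNSTRN, and 8.19%, for RPL34, had a lower ratio than the member. Replicate 1 had the higher score at 5 of 7 members and in 26 of all 471 pairs, which is 5.52%. The rule used these scores, so nothing is read from that contrast. The lists also began at different scores, the lowest being 50.03 in replicate 1 and 70.02 in replicate 2. Any shared pair with a replicate 1 score below 70.02 therefore had to score higher in replicate 2. The 464 other pairs had a median replicate 1 score of 74.8 (lower quartile 58.4), so many lay near these floors, unlike the members.

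The ratio moved with the replicate 1 score in other pairs too. Among the 37 other pairs that scored at least 200 in replicate 1, the median ratio was 1.26 (quartiles 0.861 and 2.32), and 13 of them scored higher in replicate 1. The other 2 pairs that reached the members' replicate 1 scores had ratios of 0.744 and 0.615, below all 7 members. The ratios of the 37 pairs ran from 0.462 to 11.7, and all 7 members lay within that range. Ranks depend on the length of the list too. SH3BP5L ranked 9th of 910 in replicate 1 and 188th of 4646 in replicate 2, a percentile rank of 99.1 and 96.0.

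**Figure D3:**
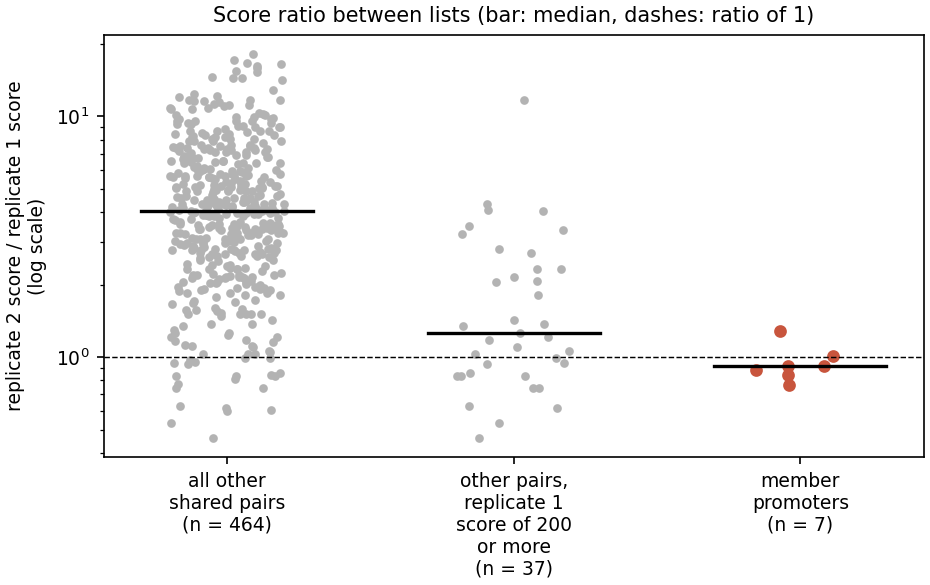
Replicate 2 score divided by replicate 1 score, on a logarithmic axis, for all 464 other shared pairs, the 37 of them with a replicate 1 score of at least 200, and the 7 member promoters. Bars are medians (4.04, 1.26 and 0.918); the members lie within the range of the middle group.

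All 14 member peaks covered the start position given for the gene on hg19. That position is stated to within 50 bp for CXXC1 and RPL34 and within 500 bp for the others. At NELFA, THAP4 and ATG4B, TCP11L1 and SH3BP5L, a peak edge lay less than 500 bp from it in 1 list or both. The exact start may lie outside those peaks. Offsets here are of the peak's midpoint along the chromosome, negative towards lower coordinates. At CXXC1 the midpoint lay at -515 bp in replicate 1 and -414 bp in replicate 2, more than the rounding. CXXC1 is transcribed towards lower coordinates, so by the stated position both peaks lay mostly on the side of the gene body. They reached 68 bp and 212 bp past that position on the upstream side. Whether it is the same start as the RefSeq start used for the sequence was not analysed here, so the side holds for the stated position only. Whether the peaks cover the GTACGG site of CXXC1 was not analysed here, since its sequence is placed in another build.

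At RPL34 the midpoints lay at -89 and -51 bp, close to the start. For the other 5 promoters every offset was within the rounding and cannot be told from 0. Midpoints were at -113 and -76 bp for NELFA, -160 and -182 bp for THAP4 and ATG4B, 52 and 29 bp for KNSTRN, 93 and -3 bp for TCP11L1, and 406 and 359 bp for SH3BP5L. In each promoter the peaks of both lists shared most of their bases. No peak lay near the 2 kb limit of the rule: the farthest member edge was 1097 bp from its start position, and the nearest other peak was 45.4 kb from a member.

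**Figure D4:**
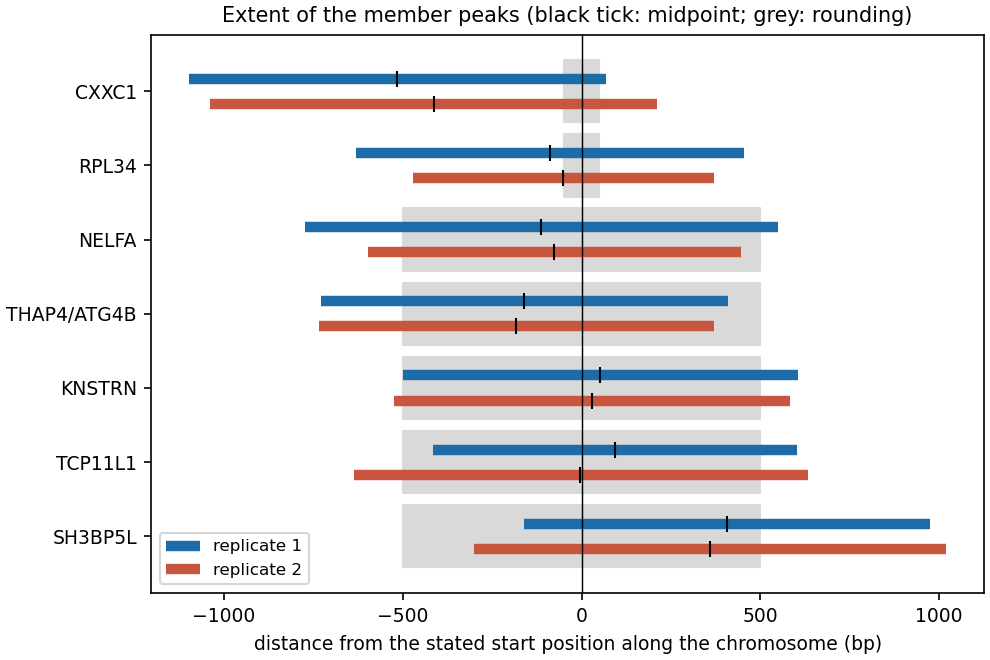
Extent of each member peak in replicate 1 (blue) and replicate 2 (red) in bp from the start position on hg19 along the chromosome, with a black tick at the midpoint and the rounding of the position in grey. All bars cross 0, and the CXXC1 bars extend mostly to the left.

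Both lists placed the member peaks close to each other. Midpoints were 22.5 bp apart at THAP4 and ATG4B and at KNSTRN, 37.5 bp at NELFA, 38.0 bp at RPL34, 47.0 bp at SH3BP5L, 96.0 bp at TCP11L1 and 101 bp at CXXC1. Their median was 38.0 bp, against 89.5 bp over the 464 other pairs and 64.0 bp over the 37 with a replicate 1 score of at least 200. The bases common to both peaks were 77.6 to 96.1% of those covered by either, with a median of 84.6%. Over all other pairs the median was 70.6%, and over the 37 it was 84.9%, so the members resembled other high-scoring shared sites in this measure.

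Member peaks were of ordinary width. They measured 1166, 1087, 1323, 1140, 1105, 1020 and 1137 bp in replicate 1 for CXXC1, RPL34, NELFA, THAP4 and ATG4B, KNSTRN, TCP11L1 and SH3BP5L. In replicate 2 they measured 1252, 843, 1044, 1105, 1108, 1270 and 1321 bp in the same order. All 7 were wider than the replicate 1 list median of 925 bp, and 2 of 7, RPL34 and NELFA, were narrower than the replicate 2 median of 1067 bp. Among the 100 highest peaks of each list the median was 1261 bp in replicate 1 and 1959 bp in replicate 2. The replicate 2 group of 100 holds only 3 of the 7 members: CXXC1, RPL34, and the promoter of THAP4 and ATG4B.

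Several member promoters stood alone. In replicate 1 the nearest other peak was 11739 kb away at TCP11L1, 10067 kb at CXXC1 and 1612 kb at RPL34, against a list median of 260.5 kb. The closest neighbours in replicate 1 were at KNSTRN, 210.0 kb away, and at THAP4 and ATG4B, 229 kb away. In replicate 2, which has more peaks, the distances ran from 45.4 kb at THAP4 and ATG4B to 842 kb at CXXC1, against a median of 72.7 kb. Within 1 Mb, NELFA had 17 other replicate 2 peaks and THAP4 with ATG4B had 16, whereas CXXC1 and TCP11L1 had 1 each.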

How the data were processed

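ChIP-seq for ASH1 in K562 cells gave 1 peak list for each of 2 samples. BWA and MACS are the tools named, per the submitters' processing notes; the sources used here give no versions, settings, control or depth. The peaks are on hg19, per the names the authors gave the lists. The score deposited with each peak by the authors was used as it stands, to rank peaks within a list and to describe ratios. Positions are 1-based. Peaks were paired when they overlapped by at least 1 bp, with the highest-scoring partner kept; a peak belonged to a member within 2 kb of the hg19 start position stated in the selection. Promoter sequences, strands and neighbouring genes came from RefSeq tables of GRCh38.p14, and no position was converted. Overlapping matches of a word count as 1 site. All members are named. The members and lists were chosen with earlier results of these data known. Counts of peaks at related genes were planned but not computed, for want of hg19 start sites. No test was run. Overlap and word searches were tested on simulated data. Python 3.11.15, numpy 2.4.6, pandas 2.3.3 and matplotlib 3.10.9 were used.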

Additional observations from a re-analysis of the deposited data

How the results depend on the processing

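All 7 promoters had overlapping peaks in both lists under every alternative run: 50% of the shorter or of the longer peak overlapped, windows of 1 or 5 kb, and scores of at least 100 in both lists. Leaving out either replicate gave 7 to 7 promoters with a peak in the list that remained. The members were chosen as strong peaks shared by both lists, so these settings could hardly give another number. All 7 had a score ratio below the lower quartile of other shared pairs, also with 50% overlap of the shorter peak or with both scores at least 100. With the difference of percentile ranks in place of the ratio the number was 3, and against other pairs with a replicate 1 score of at least 200 it was 2. These counts only describe the members, since the choice used the scores and the replicate 1 score is the divisor of the ratio. The median width of the members was 1.23 times that of the list in replicate 1 and 1.04 times in replicate 2; against the 100 highest peaks it was 0.902 and 0.566 times. The median distance from the start was 103 bp for the midpoint and 0 for the nearest point of the peak, both under the rounding of most start positions. GTACGG was found in 6 of 8 members in the 300 bases, in the 250 before the start and at the first listed start alone; GTACGGA was in 5 and CGTACGG in 4. The comparison with scores of at least 200 and all settings for promoter words were chosen after seeing the data. No paired analysis was possible because both samples are in 1 group. Depth is unknown, and its part in the scores and ranks was not tested.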
